A study of Mus musculus with 24 samples.

Results

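The angiopoietin and Tie receptor genes were followed in endothelial cells that had been sorted from mouse aorta and mouse skeletal muscle. The group holds 6 genes chosen by name, Angpt1, Angpt2, Tek, Tie1, Ptprb and Angptl2, of 18539 gene symbols on the array. They were read on the 9 probes whose transcript accession maps to them. Angpt1, Ptprb and Angptl2 had 2 probes each and the other genes had 1. Each gene is reported on its brightest probe in a tissue, or over both tissues where the tissues were compared. Ang2 on this array is a ribonuclease gene and was not taken for Angpt2.

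Angiopoietin-1 and angiopoietin-2, the products of Angpt1 and Angpt2, are secreted ligands of Tie2, the receptor tyrosine kinase that Tek encodes. Angiopoietin-1 comes mainly from mural and other perivascular cells and activates Tie2, which keeps vessels quiet and their junctions tight. Angiopoietin-2 is made and stored by endothelial cells and acts as a weak agonist or an antagonist depending on the setting. Tie1 is a related receptor with no well-established ligand of its own that pairs with Tie2. Ptprb encodes the endothelial phosphatase VE-PTP, which removes phosphate from Tie2. Angptl2 is a secreted angiopoietin-like protein that does not bind Tie2.

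The 8 groups came from wild-type C57BL/6 mice (WT) and galectin-3-deficient mice (KO; Lgals3-/-, a homozygous germline deletion of part of Lgals3, carried by all cells), each fed a high-fat diet (HFD) with 60% of calories from fat or a chow diet with 12%, both for 8 weeks, and each sampled in aorta and in muscle. All mice were male, and feeding started at an age of 8 weeks. Each group had 3 arrays, 1 from each of 3 independent experiments, so that an array stands for a pool of 3 to 4 animals and 24 arrays were analysed. Live CD105+/CD45- cells were sorted, and their RNA was amplified, labelled with Cy3 and hybridised to a 1-colour Agilent mouse array. Each of the 6 slides held the 4 groups of 1 tissue and 1 experiment, so slide and experiment cannot be told apart within a tissue. The 3 experiments are the replicates, and p-values measure the spread between their pools.

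Levels are given as log2 of the signal relative to the 75th percentile of the array, so that a level of 0 is a signal at that percentile. A level of one probe says nothing about the level of another probe, so genes are compared only by their differences between arrays. On an array, 59.5% to 75.7% of the spots were well above background, and no spot of a probe was saturated. All 11 endothelial markers were well above background on every array of both tissues. The fibroblast markers were also well above background, 8 of 8 on all aortic arrays and 7 of 8 on all muscle arrays. The Lgals3 probe did not check the genotype: its level lay between 0.90 and 4.98 in WT and between 2.40 and 6.31 in KO and was higher in KO in 11 of 12 pairs. Where that probe lies relative to the deleted part of the gene was not analysed here, so KO is used below as the label gives it. The study itself reported the deletion in DNA, in RNA with primers inside the deleted part, and in protein.

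In the mouse genome (GRCm38.p6, RefSeq), the genes lie at chr15:42424667-42676977 (Angpt1), chr8:18690263-18741562 (Angpt2), chr4:94739086-94874976 (Tek), chr4:118471191-118489849 (Tie1), chr10:116275502-116389538 (Ptprb) and chr2:33215951-33247725 (Angptl2). Promoter sequence is shown for Tie1, which had the most negative aorta minus muscle difference of the 6 genes on their brightest probes, and for Angptl2, which was higher there. The bases just before each gene are printed 5′ to 3′ on the gene's strand, with capitals on matches to AGGAAG on either strand, which is a core of the sites that ETS transcription factors recognise.
Tie1, chr4:118489850-118490099, minus strand: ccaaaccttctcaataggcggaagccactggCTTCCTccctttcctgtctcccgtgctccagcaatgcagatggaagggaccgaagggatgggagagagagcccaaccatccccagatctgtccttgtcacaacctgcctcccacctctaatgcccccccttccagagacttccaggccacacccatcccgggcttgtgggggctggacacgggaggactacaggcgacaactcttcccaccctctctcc
Angptl2, chr2:33215711-33215950, plus strand: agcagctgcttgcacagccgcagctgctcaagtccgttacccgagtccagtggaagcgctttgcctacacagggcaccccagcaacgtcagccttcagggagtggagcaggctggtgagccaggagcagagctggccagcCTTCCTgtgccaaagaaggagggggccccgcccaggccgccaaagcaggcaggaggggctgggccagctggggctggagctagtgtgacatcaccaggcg
Each window held 1 match. Windows of the same length held at least 1 match in 29.5% of 32851 mouse promoters for Tie1 and in 28.4% for Angptl2. A match is a description of these letters and not a site shown to be used.

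The clearest pattern in these genes was the tissue. Tek, Tie1, Ptprb and Angpt2 were lower in aortic than in muscle endothelial cells, and Angpt1 and Angptl2 were higher in the aorta. All 6 genes passed the test over the 4 strain and diet groups (limma, Benjamini-Hochberg adjusted p under 0.05 over 27387 probes). So did 12630 of the 27387 probes, or 46.1%, which is the background against which the 6 of 6 is read. Angpt1 was tested here through its WT aortic groups, and it was not well above background on any muscle array. Its call, here and in the counts below, thus sets aortic signal against dim values. The median difference was -1.13 over the 6 genes and -0.27 over all probes, so an average probe was itself lower in the aorta under this scaling. Of the probes that passed, 4373 were higher in the aorta (34.6%). In the deposited value table, whose scaling moves the median of all probes up by 0.27, the share was 58.9% (5927 of 10056). The directions of the 6 genes were the same under each scaling tried. In the plot of levels by group, the tissues separate fully for Angpt2 and Tie1 and overlap for the other genes.

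**Figure D1:**
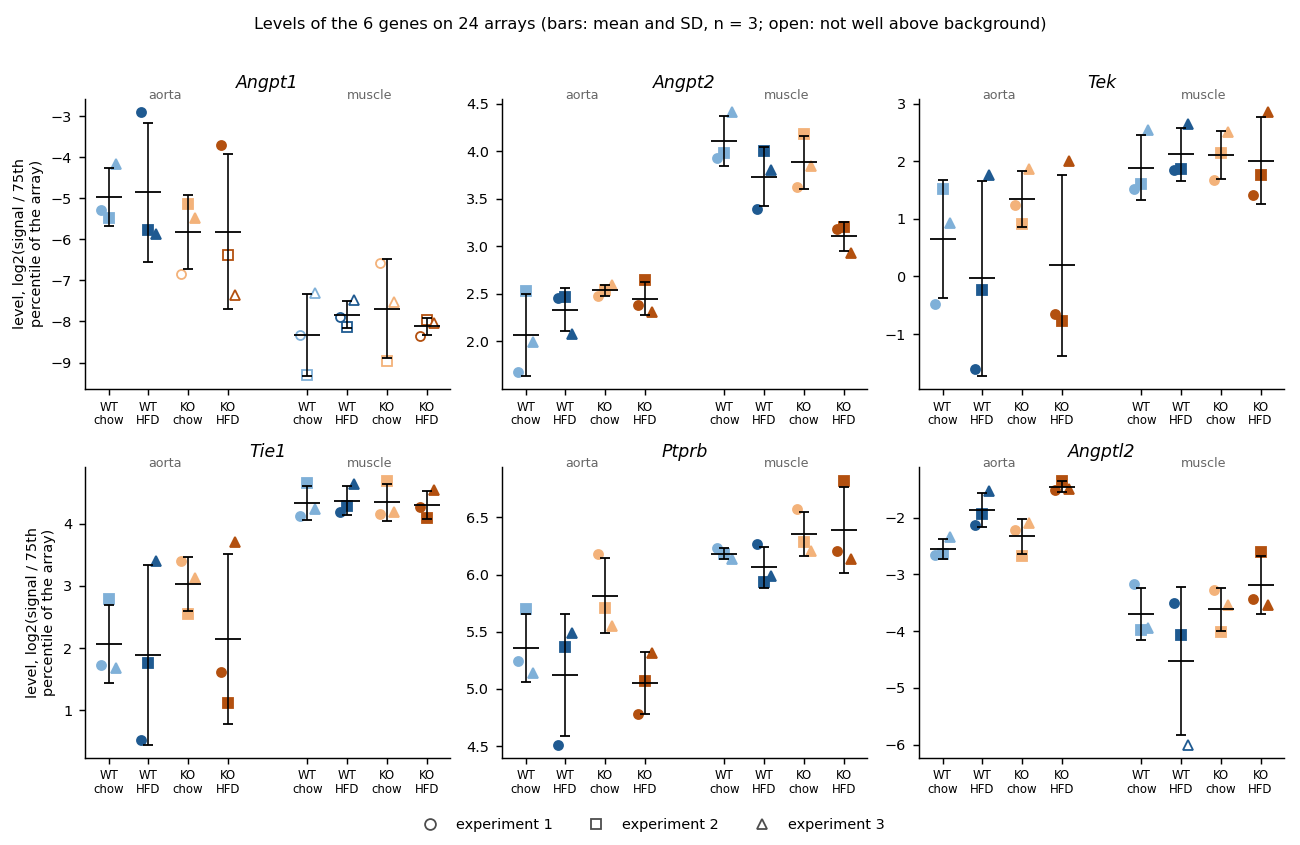
Level of each gene on every array (y axis, log2 of signal over the 75th percentile of the array) in the 4 aortic and 4 muscle groups, with bars for the mean and SD of 3 arrays and open symbols for spots not well above background. Tie1 and Angpt2 lay lower on every aortic array than on any muscle array, and Angpt1 was not well above background on any muscle array on the probe shown.

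Among the receptors, Tie1 had levels from 0.52 to 3.70 on the 12 aortic arrays, with a median of 2.16. On the 12 muscle arrays its levels ran from 4.09 to 4.69, with a median of 4.24. No aortic array reached the lowest muscle array. The arrays of the 2 tissues did not overlap, in either direction, for 5.65% of the 27387 probes. The aorta minus muscle difference was -2.05 (SE 0.30, adjusted p = 2.25e-05), a level at 0.242 of that in muscle, and it was negative in 12 of 12 pairs of arrays of the same strain, diet and experiment. The share of all probes with the same direction in 12 of 12 pairs was not counted, here and below. The SD within groups was 1.06 in the aorta and 0.263 in muscle, so Tie1 was also the more variable in the aorta.

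Tek, the Tie2 gene, ran from -1.61 to 2.00 in the aorta (median 0.92) and from 1.41 to 2.86 in muscle (median 1.86). These ranges overlapped, with the highest aortic arrays among the muscle arrays. The difference was -1.49 (SE 0.38, adjusted p = 0.00377) and it was negative in 12 of 12 pairs, from -3.46 to -0.09. Tek did not pass without experiment 1 (-1.24, adjusted p = 0.0539) or without experiment 2 (-1.49, adjusted p = 0.0657), and it passed without experiment 3 (-1.74).

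Ptprb, whose product acts on Tie2, ran from 4.51 to 6.18 in the aorta (median 5.34) and from 5.94 to 6.82 in muscle (median 6.20). The ranges overlapped at 1 end, through the KO chow aorta of experiment 1 at 6.18. The difference was -0.91 (SE 0.14, adjusted p = 3.66e-05) and negative in 12 of 12 pairs. The second Ptprb probe gave a difference of -2.07 (SE 0.37), also negative in 12 of 12 pairs.

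Of the ligands, Angpt2 ran from 1.68 to 2.65 in the aorta (median 2.46) and from 2.93 to 4.42 in muscle (median 3.82). The tissues did not overlap. The difference was -1.36 (SE 0.13, adjusted p = 8.24e-08), the smallest p among the 6 genes, and it was negative in 12 of 12 pairs. By group, WT chow mice differed by -2.04 and WT HFD mice by -1.40, while KO chow mice differed by -1.35 and KO HFD mice by -0.66. Over these groups the aortic mean was lowest in WT chow and the muscle mean was lowest in KO HFD.

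Angpt1 went the other way. Its brightest aortic probe was well above background on 9 of 12 aortic arrays, 3 of 3 in WT chow, 3 of 3 in WT HFD, 2 of 3 in KO chow and 1 of 3 in KO HFD, and on 0 of 12 muscle arrays. Levels ran from -7.34 to -2.89 in the aorta (median -5.47), and the muscle values have only a bound. The test used the measured means of -5.37 and -7.99 (adjusted p = 7.69e-05). It therefore set aortic signal against muscle values not well above background. Under another background correction (normexp), the difference was 1.09 in place of 2.62. In WT, where all aortic arrays were well above background, Angpt1 was at least 2.42-fold higher in the aorta on chow and at least 2.49-fold higher on HFD, set against the lowest signal that was well above background on each muscle array. No bound is given for KO, where 3 of the 6 aortic arrays were dim as well. The other Angpt1 probe was well above background on 3 of 12 arrays of each tissue and was not tested; on it the aorta was higher in 8 of 12 pairs.

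Angptl2 ran from -2.67 to -1.35 in the aorta (median -2.11) and from -6.00 to -2.60 in muscle (median -3.55). The ranges just overlapped, through the KO HFD muscle of experiment 2 at -2.60. The difference was 1.70 (SE 0.23, adjusted p = 6.75e-06), a 3.26-fold higher level in the aorta, and it was positive in 12 of 12 pairs. The second Angptl2 probe gave 1.74 (SE 0.37) and was higher in the aorta in 10 of 12 pairs. In muscle this probe was well above background on 5 of 12 arrays, so the size of its difference rests partly on dim signals.

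**Figure D2:**
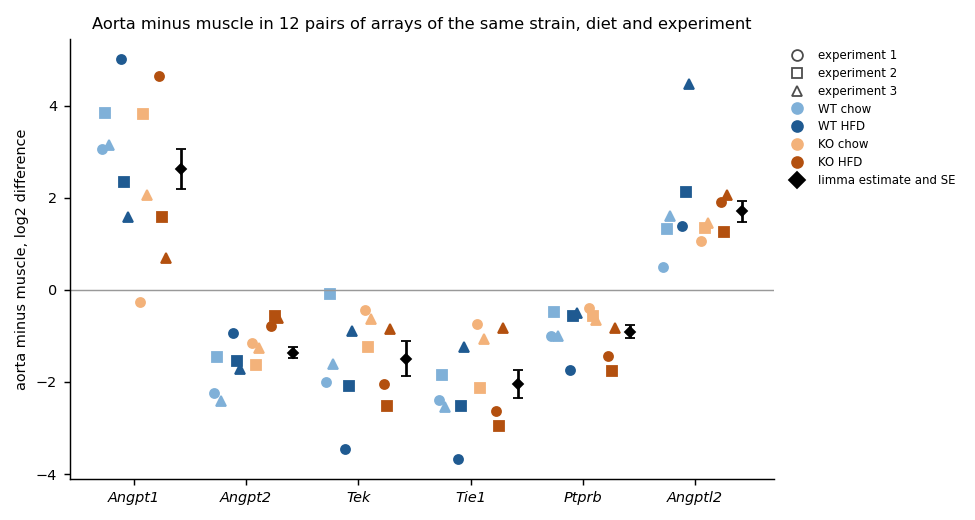
Aorta minus muscle difference (y axis, log2) of each gene in 12 pairs of arrays of the same strain, diet and experiment, coloured by strain and diet with a symbol for each experiment, and the limma estimate with its SE as a diamond. Angpt2, Tek, Tie1 and Ptprb were below 0 in 12 of 12 pairs and Angptl2 above 0 in 12 of 12, and the Angpt1 values rest on muscle signals not well above background.

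By single group, the count of genes past the threshold varied. It was 3 of 6 in WT chow (Angpt1 higher, Angpt2 and Tie1 lower; 15.5% of all probes passed), 5 of 6 in WT HFD (all but Tek; 16.7%), 1 of 6 in KO chow (Angpt2 lower; 6.4%) and 3 of 6 in KO HFD (Angptl2 higher, Tie1 and Ptprb lower; 16.3%). Without experiment 2 these counts were 1, 2, 0 and 0. The direction of the estimate was the same in all 4 groups for each of the 6 genes. Whether these differences between tissues themselves differed between the strains was not tested.

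The slides lay within tissues, so a tissue difference includes any difference between slides. With the slide as a random block, all 6 genes still passed, with adjusted p from 1.01e-05 for Angpt2 to 0.0240 for Tek. Cell type markers moved with the tissue as well. Of the 11 endothelial markers, 10 passed lower and 0 higher in the aorta, with a median of -1.03. The summed linear signal of these markers, relative to the 75th percentile, ran from 160 to 504 on the aortic arrays and from 478 to 780 on the muscle arrays. Fibroblast markers were higher in the aorta for 8 of 8 genes (median 4.16, summed signal 303 to 691 against 23.3 to 223). Of the 10 smooth muscle and pericyte markers, 7 were lower and 1 higher in the aorta. Adipocyte markers were higher for 5 of 5 tested genes (median 2.28), and skeletal muscle fibre markers were lower for 9 of 9 (median -6.62). Of 5 lymphatic endothelial markers 2 were higher and 1 lower, and of 8 macrophage and leukocyte markers none passed. In such bulk samples, fewer cells of a type and less RNA per cell cannot be told apart, and the part of these markers in the differences of the 6 genes was not tested.

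A measurement that bears on this is the level of each gene relative to the mean log2 level of the 11 endothelial markers on the same array, chosen after the data had been seen and given with no test. The aorta minus muscle difference of that mean was itself -1.105 ± 0.543 (SD, n = 12 pairs). Relative to it, Tie1 was still lower in 11 of 12 pairs (-0.94 ± 0.53, SD, n = 12). Tek was lower in 9 of 12 pairs (-0.39 ± 0.51) and Angpt2 in 8 of 12 (-0.26 ± 0.88), both within their spread. Ptprb turned to the other side, higher in 9 of 12 pairs by 0.20 ± 0.27. Angptl2 (2.81 ± 1.08) stayed higher in 12 of 12 pairs. Angpt1 was also higher in 12 of 12, with no size given because its muscle signals were not well above background.

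The other genes of the pathway, a list of 38 reported here, were read the same way. Of the 38, 11 were higher and 16 lower in the aorta at an adjusted p under 0.05, and the median of the list was -0.26 against -0.27 for all probes. Of the other angiopoietin-like ligands, 4 of 5 were higher in the aorta and 0 lower. Angptl7 was higher by 5.71 (SE 0.75), Angpt4, a further angiopoietin ligand of Tie2, by 5.15 (SE 0.45), Angptl1 by 2.90 and Angptl6 by 0.85. In muscle, the Angpt4 probe was well above background on 1 of 12 arrays and the Angptl7 probe on 6 of 12, so the sizes of these differences rest partly on dim signals. Angpt4 was tested only through its aortic groups. Its call, here and among the 11 higher genes, thus sets aortic signal against dim values. Angptl4 (0.20) did not pass. Svep1, which encodes an extracellular matrix protein that binds Tie1, was higher by 5.35 (SE 0.56).

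The integrin subunits that bind angiopoietins split. Itgb3 (1.99) and Itgav (1.73), which form the vitronectin receptor, were higher in the aorta, Itgav against a muscle signal that was well above background on 5 of 12 arrays, while Itga5 (-1.03) and Itgb1 (-0.58), which form the fibronectin receptor, were lower. Among the adaptors and kinases downstream of Tie2, 3 of 16 were higher and 6 lower. Grb14 (2.69), Pik3r2 (0.80) and Shc1 (0.49) were higher. Pik3cb (-1.68), the nitric oxide synthase gene Nos3 (-1.54), Nck1 (-0.86), Grb2 (-0.80), Pik3ca (-0.56) and Akt1 (-0.51) were lower.

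Of 4 transcription factors, Elf1 (-0.72), an ETS factor, and Klf2 (-0.60), a flow-responsive factor, were lower, and Foxo1 (0.24) and Foxo3 (0.28), which Tie2 signalling restrains, did not pass. All 4 junction and receptor regulators were lower: Ecscr (-1.14), the VE-cadherin gene Cdh5 (-0.91), Ctnnb1 (-0.67) and Adam17 (-0.42). Of the angiogenic inputs, Vegfa (2.31) was higher, Kdr (-1.02) and Epas1 (-0.51) were lower, and Hif1a (-0.67) did not pass. Cdh5 and Kdr also stand among the 11 endothelial markers. Each pathway gene that passed lower lay below the median of all probes, the nearest being Adam17.

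**Figure D3:**
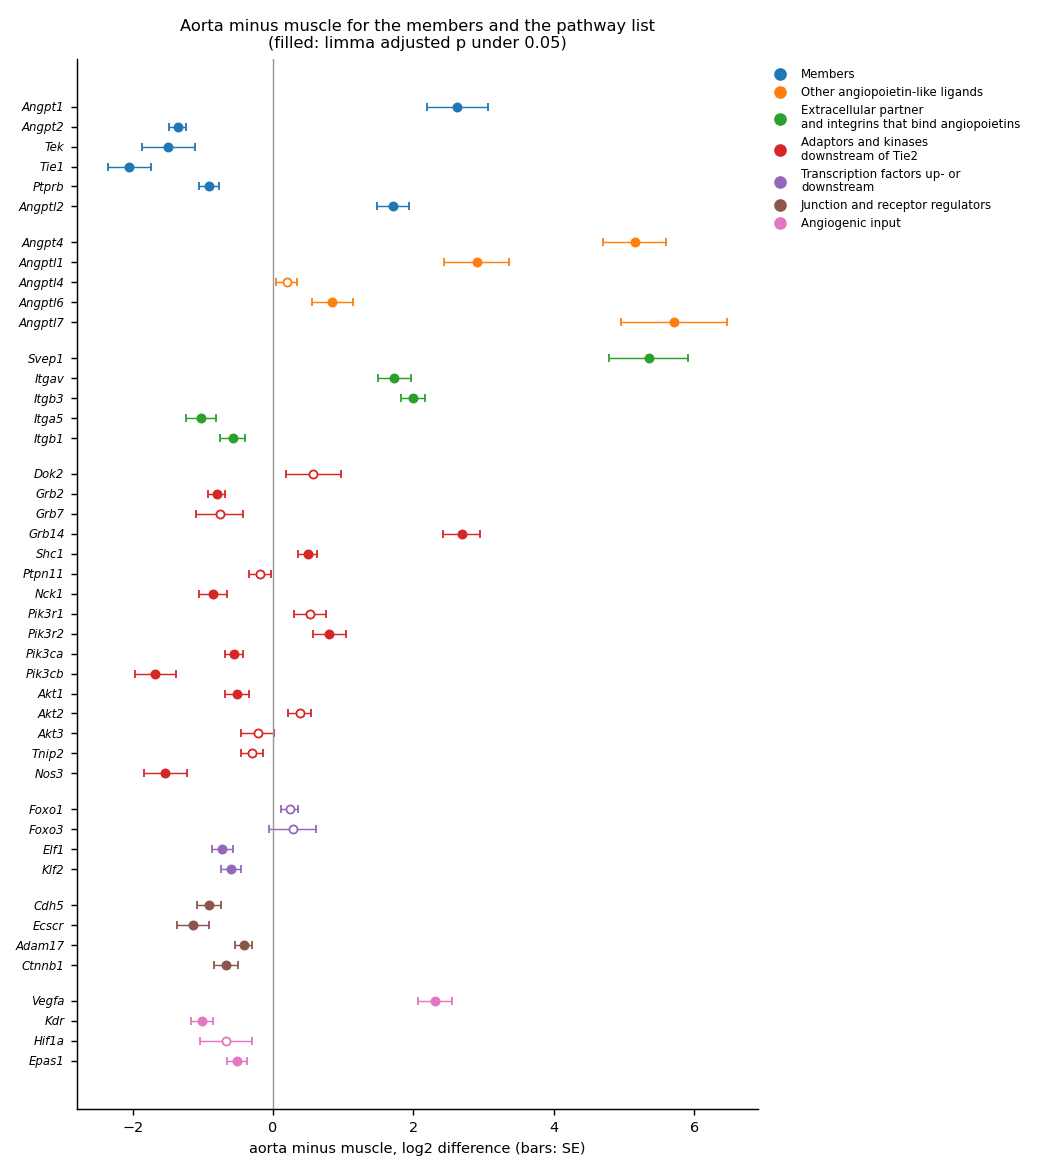
Aorta minus muscle difference (x axis, log2, with SE) over all 24 arrays for the 6 genes and the 38 other genes of the pathway (y axis), coloured by role and filled where the adjusted p was under 0.05. The other angiopoietin-like ligands and Svep1 lie to the right, with Angptl7 at 5.71, and the 4 junction and receptor regulators all lie to the left of 0.

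The diet was the question the study was built around, and no gene of the 6 passed the test for it in either tissue. In the aorta, the count was 0 of 6 for WT (0.0% of 25865 probes passed), 0 of 6 for KO (0.0%) and 0 of 6 over both strains (0.0309%). In muscle it was 0 of 5 for WT (0.0% of 25682 probes), 0 of 5 for KO (0.00389%) and 0 of 5 over both strains (0.288%), since Angpt1 was too dim there to be tested. Few probes of any kind passed, so these counts say little about the 6 genes in particular. At an unadjusted p under 0.05, limma gave 1 gene in the aorta, Angptl2, in WT (5.76% of all probes), in KO (11.3%) and over both strains (15.1%). In muscle it gave 0 genes in WT (12.1% of all probes) and 1, Angpt2, in KO (8.50%) and over both strains (16.4%). After adjustment, the methods' t-test also called 0 genes within each strain.

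Angptl2 was the only one of the 6 genes with the same direction in all 6 aortic pairs. In the WT aorta its levels were -2.67, -2.65 and -2.34 on chow and -2.12, -1.94 and -1.54 on HFD, in the order of experiments 1, 2 and 3. In the KO aorta they were -2.22, -2.67 and -2.10 on chow and -1.52, -1.35 and -1.49 on HFD. In each strain, every HFD array lay above every chow array, and the HFD level was higher in 6 of 6 pairs. Of all probes, 26.8% in WT and 33.0% in KO had the same direction in all 3 pairs of the strain. Shares of all probes were not counted for 6 of 6 pairs, or for 3 arrays against 3 without overlap, here and below. The difference over both strains was 0.78 (SE 0.18, unadjusted p = 0.0044, adjusted p = 0.192, limma), a level 1.72-fold of that on chow, and it did not pass the threshold. It was 0.69 in WT and 0.88 in KO, and the KO response minus the WT response was 0.19 (SE 0.37). The second Angptl2 probe was also higher in 6 of 6 pairs, by 1.55 (SE 0.34, adjusted p = 0.172), but 2 of 3 KO chow arrays were not well above background on it, and in WT, where all were, it gave 1.04.

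In the WT muscle, Angptl2 was at -3.17, -3.97 and -3.94 on chow and at -3.51, -4.06 and -6.00 on HFD. All 3 pairs were lower on HFD, but mainly through the spot of experiment 3, which was not well above background. Of all probes, 36.5% had the same direction in all 3 pairs of WT muscle. In the KO muscle Angptl2 was at -3.27, -4.02 and -3.55 on chow and -3.43, -2.60 and -3.54 on HFD, lower in 1 of 3 pairs. The muscle difference was -0.83 in WT and 0.42 in KO (SE 0.47, adjusted p = 0.536 and 0.808). The diet response of Angptl2 in the aorta exceeded that in muscle by 0.99 (SE 0.40, unadjusted p = 0.0317, adjusted p = 0.482), and this comparison called 0 of 6 genes (0.0% of 27387 probes), with Angptl2 and Angpt2 at an unadjusted p under 0.05, as were 9.25% of all probes.

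Angpt2 had its largest diet difference in muscle. Its WT muscle levels were 3.93, 3.99 and 4.42 on chow and 3.39, 4.01 and 3.80 on HFD. Its KO muscle levels were 3.62, 4.18 and 3.85 on chow and 3.18, 3.21 and 2.93 on HFD. All KO HFD arrays lay below all KO chow arrays, and the WT groups overlapped. Of all probes, 28.3% had the same direction in all 3 pairs of KO muscle, and the share without overlap was not counted. The difference over both strains was -0.58 (SE 0.17, unadjusted p = 0.0107, adjusted p = 0.182, limma), with a lower level on HFD in 5 of 6 pairs, and it did not pass the threshold. It was -0.37 in WT and -0.78 in KO, with a KO minus WT difference in response of -0.40 (SE 0.33).

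In the aorta, Angpt2 was at 1.68, 2.53 and 2.00 in WT chow and 2.46, 2.47 and 2.08 in WT HFD, and at 2.48, 2.54 and 2.59 in KO chow and 2.39, 2.65 and 2.31 in KO HFD. Those groups overlapped, and the diet difference over both strains was 0.09 (SE 0.19). The response of Angpt2 in the aorta exceeded that in muscle by 0.66 (SE 0.24, unadjusted p = 0.0177, adjusted p = 0.423).

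**Figure D4:**
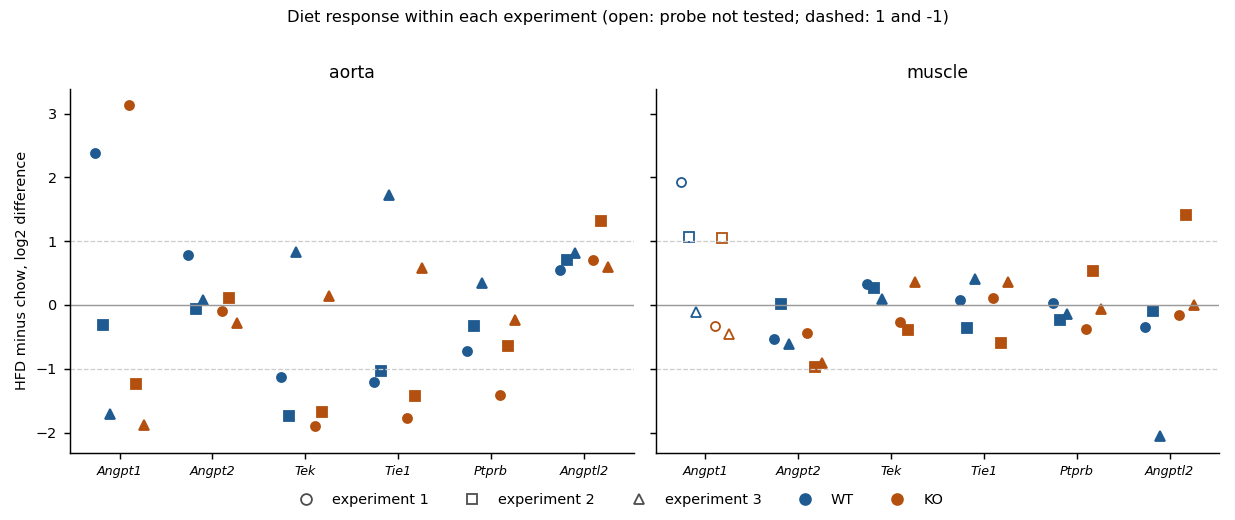
HFD minus chow difference (y axis, log2) of each gene within each experiment, in aorta (left) and muscle (right), with WT and KO in 2 colours, a symbol for each experiment and open symbols where the probe was not tested. Angptl2 lies above 0 in 6 of 6 aortic pairs, and Tek and Tie1 lie below 0 in experiments 1 and 2 and above 0 in experiment 3 in both strains. Each Angpt1 pair of the KO aorta includes a value not well above background.

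The receptors differed between experiments in the aorta. Tek was at -0.48, 1.52 and 0.93 in WT chow, -1.61, -0.23 and 1.76 in WT HFD, 1.25, 0.91 and 1.86 in KO chow and -0.65, -0.77 and 2.00 in KO HFD. Tek was thus lower on HFD in experiments 1 and 2 and higher in experiment 3, in WT and in KO. The difference over both strains was -0.92 (SE 0.42, adjusted p = 0.362); it was -1.61 without experiment 3 and -0.52 without experiment 2. Tie1 was at 1.73, 2.80 and 1.68 in WT chow, 0.52, 1.77 and 3.40 in WT HFD, 3.40, 2.55 and 3.12 in KO chow and 1.62, 1.12 and 3.70 in KO HFD. It followed the same order over the experiments, with a difference of -0.52 (SE 0.49, adjusted p = 0.640) that was -1.36 without experiment 3 and -0.04 without experiment 1. In muscle, the diet differences of Tek (0.07, SE 0.16) and Tie1 (-0.00213, SE 0.19) were nearer 0 than those of the aorta.

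Ptprb in the aorta was at 5.24, 5.70 and 5.14 in WT chow and 4.51, 5.37 and 5.49 in WT HFD, which overlapped. In KO it was at 6.18, 5.71 and 5.55 on chow and 4.78, 5.07 and 5.31 on HFD, which did not. The share of all probes without overlap was not counted. The KO difference was -0.76 (SE 0.34, adjusted p = 0.457), and that over both strains was -0.50 (SE 0.24, adjusted p = 0.378), lower in 5 of 6 pairs. The Angpt1 pair differences in the aorta ran from -1.87 to 3.13, with a mean near 0 (0.06, SE 0.78). Both ends of this range were KO pairs. Each KO pair held an Angpt1 value not well above background: KO chow in experiment 1, and KO HFD in experiments 2 and 3. Its aortic levels in experiment 1 were -5.29 in WT chow and -2.89 in WT HFD, and -6.84 in KO chow and -3.71 in KO HFD, while both strains were lower on HFD in experiments 2 and 3. Without experiment 1, the difference was -1.28.

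The marker lists were also read for diet, and 0 markers of any list passed the adjusted threshold in either tissue over both strains. In the aorta, endothelial markers had values below 0 on HFD for 11 of 11 genes, with a median of -0.62. Fibroblast markers were higher for 8 of 8 (median 0.60). Adipocyte markers were lower for 5 of 5 tested genes (median -4.14), with the summed signal from 73.7 to 258 on chow and from 3.25 to 12.2 on HFD. Lep was not well above background on any aortic array. In muscle, endothelial markers had a median of -0.07 and fibroblast markers of 1.02 (8 of 8 above 0). Macrophage and leukocyte markers had a median of 1.58 in muscle (6 of 7 above 0), adipocyte markers of -0.83 (0 of 5 above 0), and smooth muscle and pericyte markers of -0.45 (2 of 10 above 0). Relative to the endothelial mean on the same array, Angptl2 in the aorta was higher on HFD in 6 of 6 pairs (1.52 ± 0.80, SD, n = 6) and Angpt2 in muscle was lower in 5 of 6 (-0.46 ± 0.39). Tek in the aorta was then at -0.18 ± 0.46, and Tie1 (0.21 ± 0.68) and Ptprb (0.24 ± 0.33) turned positive, all within their spread. The part of the other markers was not tested.

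By the criterion of the study's methods, a log2 ratio of HFD to chow beyond 1 on the same side in each of the 3 experiments, 0 of 6 genes passed in the aorta in WT (1.59% of probes did) and in KO (2.93%), and 0 of 5 in muscle in WT (1.83%) and in KO (0.989%). The study also ran a pathway analysis on transcripts past 0.75 log2, and there it listed Angptl2 under vasculogenesis for the KO aorta and not for WT. Here the mean difference of Angptl2 was 0.88 in the KO aorta and 0.69 in the WT aorta. At 0.75 in all 3 experiments, 0 of 6 genes passed in either. Of the 38 other genes of the pathway, 0 passed the adjusted threshold for diet in either tissue, with 34 tested in muscle. The largest differences in the aorta over both strains were Angpt4 (2.13, SE 0.49, adjusted p = 0.179), Pik3r2 (0.85) and Itgav (0.83). In muscle they were Svep1 (1.80, SE 0.32, adjusted p = 0.0973), Angptl1 (1.17) and Dok2 (1.16, adjusted p = 0.132).

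The strain comparison asked whether the genes differed between KO and WT. No gene passed on either diet or over both: 0 of 6 in the aorta on chow (0.0116% of probes passed), on HFD (0.00387%) and over both diets (0.0116%), and 0 of 5 in muscle on chow (0.0%), on HFD (0.0%) and over both diets (0.0%). The response to diet did not differ past the threshold between the strains either, with 0 of 6 in the aorta (0.0%) and 0 of 5 in muscle (0.0%). At an unadjusted p under 0.05, limma gave 2 genes for strain in muscle on HFD, Angpt2 and Angptl2 (3.15% of all probes), 1 in muscle over both diets, Angpt2 (3.27%), and 0 in each other strain or response comparison.

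The largest strain differences in muscle were on HFD. Angpt2 was lower in KO HFD than in WT HFD muscle in 3 of 3 pairs, by -0.63 (SE 0.26, unadjusted p = 0.0334, adjusted p = 1, limma), and the arrays of these groups did not overlap. Angptl2 was higher in KO by 1.33 (SE 0.56, unadjusted p = 0.0379, adjusted p = 1), with pair differences of 0.08, 1.46 and 2.45 and a value of 0.77 without experiment 3, whose WT spot was dim. The second Angptl2 probe went the other way, lower in KO in 3 of 3 pairs by 1.51 on the log2 scale (a mean difference of -1.51), with no test because it was too dim. Tie1 in muscle differed between the strains by 0.01 on chow and -0.07 on HFD (SE 0.26). In the aorta, Tie1 (0.95, SE 0.77), Tek (0.68, SE 0.92), Angpt2 (0.47, SE 0.29) and Ptprb (0.45, SE 0.34) were higher in KO chow than in WT chow, and Angpt1 (-0.84, SE 0.99) was lower, with 0 of 6 at an unadjusted p under 0.05. Angpt2 and Ptprb were higher in 3 of 3 of these pairs. Endothelial markers were also above 0 in KO chow against WT chow aorta, for 11 of 11 genes. Their median was 0.44, against 0.03 for all probes, and 0 of them passed the adjusted threshold. On HFD, 7 of 11 were above 0, with a median of 0.07. The part of these markers in the strain differences was not tested. In the strain comparisons, shares of all probes for 3 of 3 pairs or for groups without overlap were not counted.

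Ordered by level over the 8 groups, the 4 muscle groups stood above the 4 aortic groups for Angpt2, Tek, Tie1 and Ptprb, and below them for Angpt1 and Angptl2. For Tie1, the 3 arrays of neighbouring groups overlapped at every step except from the lowest muscle group (KO HFD, 4.30 ± 0.23, SD, n = 3) to the highest aortic group (KO chow, 3.02 ± 0.43). For Angpt2 the order was WT chow muscle (4.11 ± 0.27), KO chow muscle (3.88 ± 0.28), WT HFD muscle (3.73 ± 0.31) and KO HFD muscle (3.10 ± 0.15), followed by the aortic groups from KO chow (2.54 ± 0.06) to WT chow (2.07 ± 0.43). Its neighbours did not overlap on either side of KO HFD muscle and overlapped elsewhere. For Angptl2 the highest group was KO HFD aorta (-1.45 ± 0.09), which did not overlap with WT HFD aorta (-1.87 ± 0.30), and all later neighbours overlapped. For Tek, Ptprb and Angpt1, every pair of neighbours overlapped. Shares of all probes were not counted for these steps.

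Within groups, the 2 receptors moved together in the aorta. After the group means were taken out, the correlation of Tek with Tie1 over the 12 aortic arrays was r = 0.94 and rho = 0.88 (exact permutation within groups, 2-sided, p = 0.00617 and 0.00694, adjusted p = 0.0514 and 0.0579 over 25 pairs of genes in both tissues). It was 0.84 after the 2 Tek values most distant from the median were left out and 0.98 with slide means also taken out (adjusted p = 0.0386), so the call depended on the slide means. Tie1 and Ptprb had r = 0.76 and rho = 0.73 (exact permutation p = 0.0231 and 0.0239, adjusted p = 0.145 and 0.149), 0.74 without 2 arrays and 0.90 within slides. In muscle, where both varied little, Tek and Tie1 had r = 0.37 and rho = 0.31 (exact permutation p = 0.297 and 0.401).

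Angpt1 ran against Ptprb in the aorta, with r = -0.88 and rho = -0.87 (exact permutation p = 0.00231 for each, adjusted p = 0.0289). The correlation was -0.84 without 2 arrays, left out in the same way, and -0.87 within slides (adjusted p = 0.0965), and 3 of its 12 Angpt1 values were not well above background. In muscle, Tie1 ran against Angptl2, with r = -0.75 and rho = -0.85 (exact permutation p = 0.000772 for each, adjusted p = 0.0193), -0.83 without 2 arrays and -0.79 within slides (adjusted p = 0.154), and 1 of the 12 Angptl2 values was not well above background. The pairs not named here had adjusted p of 0.320 or more for r and 0.177 or more for rho.

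**Figure D5:**
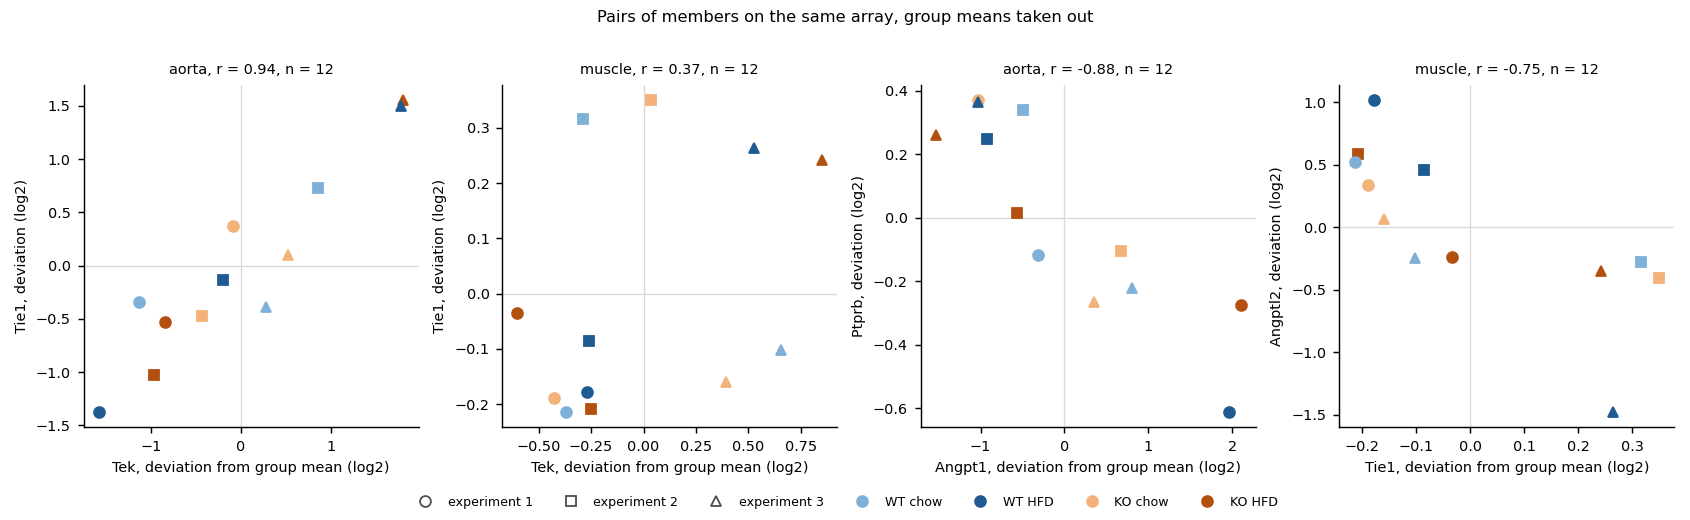
Deviations from the group mean (both axes, log2) of 2 genes on the same array, for Tek and Tie1 in aorta and in muscle, Angpt1 and Ptprb in aorta, and Tie1 and Angptl2 in muscle, coloured by strain and diet with a symbol for each experiment. Tek and Tie1 vary together in the aorta (r = 0.94), with the HFD arrays of experiment 3 at the upper end and the WT HFD array of experiment 1 at the lower end.

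The same genes were set against the mean level of each cell type marker list, 77 relations in a family of their own. Ptprb in the aorta followed the endothelial list most closely (r = 0.90, rho = 0.92, exact permutation p = 0.000772 for each, adjusted p = 0.0594), and r was 0.91 without 2 arrays and within slides. Tie1 had r = 0.87 and rho = 0.82 with that list (exact permutation p = 0.0131 and 0.01003, adjusted p = 0.153 and 0.139) and Tek had r = 0.83 and rho = 0.73 (p = 0.0355 and 0.0556 by exact permutation, adjusted p = 0.227 and 0.258). Other lists had relations of similar size in the aorta. Tek had r = 0.82 with the smooth muscle and pericyte list and -0.79 with the fibroblast list (exact permutation p = 0.00617 and 0.00772). Tie1 had r = -0.76 with the fibroblast list and Angpt1 -0.80 with the endothelial list (exact permutation p = 0.00849 and 0.0116). Each of these relations had an adjusted p of 0.153 for r. No relation of this family passed an adjusted p of 0.05.

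Of 11516 gene symbols well above background on all 24 arrays, those whose profile was most like each gene, with tissue means taken out, are given as a description over 24 arrays that share slides and experiments. For Tek they were Ptprm (r = 0.96), a receptor phosphatase of endothelial junctions, Cav2 (0.95), a caveolin, and Tm6sf1 (0.94). For Tie1 they were Zdhhc18 (0.93), Arhgap27 (0.92) and Spata13 (0.92). For Ptprb they were the endothelial tight junction gene Cldn5 (0.92), Mmrn2 (0.88) and Rgs3 (0.88). The likeness was lower for Angpt1 (Zfpm2, 0.84; Chit1, 0.74; Cand1, 0.73), Angptl2 (Mgat3, 0.69; Gpld1, 0.67; Arhgap39, 0.65) and Angpt2 (Aars2, 0.67; Pld2, 0.66; 9530026P05Rik, 0.66).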

How the data were processed

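The deposited scanner files give an intensity for each spot on a linear scale. Per the file headers, the authors' Agilent Feature Extraction (10.5.1.1; the submitters' notes name 9.1) had subtracted background, and nothing was scaled between arrays. The authors' deposited value table holds log2 signals with a constant added to each array. Here control spots and outlier flags were left out, spots of a probe averaged, and log2 signals set relative to the 75th percentile of each array. A probe was tested if it was well above background on all 3 arrays of at least 1 group, which kept 25865 probes for aorta, 25682 for muscle and 27387 for comparisons between them. limma 3.58.1 (R 4.3.3) was used, with Benjamini-Hochberg adjustment over all probes tested at 0.05. Diet fits had a block for each strain and experiment. Strain and tissue fits had group means only. The number in the labels is the experiment. It pairs the arrays, and deviations of same-numbered arrays correlated from 0.00769 to 0.621 over probes. The highest value is of WT and KO on HFD in the aorta, and chow and HFD pairs reached 0.456. In some chow and HFD pairs an array of another number correlated more. These were WT aorta of experiment 2 (0.285 against 0.0989), KO aorta of experiment 1 (0.166 against 0.00769) and KO muscle of experiment 2 (0.262 against 0.0382). Fits were tested on simulated data. Correlations used all 1296 permutations within groups.

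The 6 genes, the pathway list and the marker lists (7, from endothelial to skeletal muscle fibre) were chosen with earlier results of these data known. Pathway genes are named where called, or otherwise the 3 largest by size. Alternatives were normexp background correction (offset 50, on median signals, since no mean signals were used here), quantile normalization, the deposited value table, no filter or a strict one, each experiment left out, the mean of a gene's probes, other blocks, and the methods' t-test. Gene names and promoters came from RefSeq tables (GRCm38.p6). Promoter sequences of Angpt1, Angpt2 and Ptprb and protein sequences were not used here. A gene of the pathway list is not reported here and was left out of its counts.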

Additional observations from a re-analysis of the deposited data

Results flagged for a closer look

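In WT mice, the Angptl2 values on HFD were above those on chow in 3 of 3 aortic pairs and below them in 3 of 3 muscle pairs, though neither difference passed the threshold. Of all probes, 26.8% in WT aorta and 36.5% in WT muscle had the same direction in 3 of 3 pairs. The mean Angptl2 difference was 0.69 in the aorta (limma, adjusted p = 0.826) and -0.83 in muscle (limma, adjusted p = 0.536). The muscle value was -0.22 without experiment 3, whose HFD spot was not well above background. This difference within WT was not tested on its own. Averaged over both strains, the tissue difference in response was 0.99 (limma, unadjusted p = 0.0317, adjusted p = 0.482). The second Angptl2 probe was higher on HFD in 3 of 3 WT aortic pairs and in 2 of 3 WT muscle pairs, so it did not show the opposite direction in muscle. It was well above background on 2 of 3 arrays of each WT muscle group.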

How the results depend on the processing

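Of the counts of genes past the threshold, 211 stayed within 1.5 times the reported value under an alternative and 9 did not. The 211 include every count for diet, strain and response, where no gene passed in the reported fit or under any alternative. All 9 that moved were counts between the tissues in single groups. With a replicate block for strain, diet and experiment, 6 of 6 genes passed between the tissues, and Tek also passed in WT HFD and in KO HFD. With a replicate block by slide, or with no replicate block, 0 of 6 genes passed for diet in the aorta; the adjusted p of Angptl2 was 0.0953 and 0.163. Keeping only probes well above background on every array left 4 genes between the tissues, because Angpt1 and Angptl2 were not tested there. With 1 experiment left out, the count ran from 1 to 2 in WT chow, 2 to 4 in WT HFD, 0 to 2 in KO chow and 0 to 4 in KO HFD; without experiment 2 it was the lowest, or tied for the lowest, in each. In KO chow the deposited value table gave 2 (Angpt2 and Angptl2). With slide means also taken out, 0 pairs of genes in muscle passed for correlation, against 1.

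Small diet differences changed sign with 1 experiment left out: Angpt1 in the aorta ran from -1.28 to 0.99, Angpt2 in the aorta from -0.0402 to 0.18, and in muscle Tek from -0.0170 to 0.13, Tie1 from -0.19 to 0.24, Ptprb from -0.14 to 0.0198 and Angptl2 from -0.64 to 0.21. Tie1 in muscle was at 0.0105 in the deposited value table. The KO minus WT difference of Angptl2 in HFD muscle was -0.0885 on the mean of its probes. Relative to the endothelial markers, chosen after the data were seen, Ptprb was at 0.20 between tissues, and the diet differences of Tie1 and Ptprb were 0.21 and 0.24 in the aorta and 0.11 and 0.0691 in muscle. The cause was not tested.

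The number of probes past the threshold varied more. Between tissues it ran from 7715 (slide as a random block) to 15406 (replicate block) around 12630, and by group from 1257 to 6219 in WT chow, 1208 to 6480 in WT HFD, 300 to 2726 in KO chow and 1347 to 6791 in KO HFD. For diet over both strains it ran from 0 to 57 in the aorta and 0 to 274 in muscle. Within strains it ran from 0 to 4 (aorta, WT), 0 to 7 (aorta, KO), 0 to 29 (muscle, WT) and 0 to 5 (muscle, KO), from 0 to 25 between the tissues' responses, and from 0 to 4 for strain. A threshold of 0.75 in place of 1 gave 688, 1292, 896 and 513 probes, and 0 genes on their brightest probes. The share of higher calls between tissues in the deposited value table was 72.1%, 69.0%, 85.6% and 71.0% in the 4 groups, against 49.2%, 49.8%, 69.2% and 49.8%. Dim signals limit Angpt1 in muscle to a bound.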
